A study of Homo sapiens with 15 samples.

Results

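The transcripts described here encode 10 transcription factors: FOS, FOSB, FOSL1 and FOSL2 of the FOS family, JUN, JUNB and JUND of the JUN family, the small MAF protein MAFF, the zinc finger factor EGR1 and the ETS factor ETS1. They were chosen by gene symbol, with earlier results of these data known, and make up 10 of the 43388 symbols counted in each library. The cells were A549, an established human lung adenocarcinoma line that serves as a model of the alveolar epithelium. They are labelled wild type, and because all libraries come from this line the values describe A549 cells only. Cells were given 1e-05 mM all-trans retinoic acid (ATRA) or its ethanol vehicle, with a pretreatment of 24 hours. They then stayed for 72 hours in hyperoxia, at 95% oxygen, or in normoxia, at 21% oxygen. The paper describes the oxygen exposure as made with ATRA present or absent. The design gave 2 hyperoxia and 2 normoxia libraries with vehicle, 3 hyperoxia and 3 normoxia libraries with ATRA, and 2 hyperoxia and 2 normoxia libraries whose labels name neither agent, here called libraries without vehicle. The comparisons ask how hyperoxia and ATRA changed the RNA of these factors.

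AP-1 is a dimer of basic leucine zipper proteins, usually a JUN protein with a FOS protein, that binds DNA at short palindromic sites. FOSL1 and FOSL2 encode the FOS relatives Fra-1 and Fra-2, which lack a strong activation domain of the FOS type, and JUNB and JUND can oppose JUN at some targets. FOS, FOSB, JUN and EGR1 are classical immediate early genes, transcribed within minutes of MAP kinase signaling and usually only for a short time. ETS1 is itself a substrate of MAP kinases and often binds beside AP-1 at protease genes. Retinoic acid bound to its nuclear receptors is known to antagonize AP-1 activity. The RNA was collected after 72 hours, so the values are late levels and not an early response.

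Sequence upstream of the transcription start was available from RefSeq (GRCh38.p14) for 8 of the 10 genes, in 9 windows, since MAFF has 2 annotated starts, the second with no element searched for. FOSL1 and ETS1 had no entry. Each window held 250 bases before the start and 50 after it, and both strands were searched for the AP-1 site (TGANTCA), the AP-1-like site of the JUN promoter (TGACATCA), the cyclic AMP response element or CRE (TGACGTCA), the CArG box bound by serum response factor, and the EGR1 site (GCGNGGGCG). The 4 sequences below, of 250 bases ending at the base before the start, are shown because they hold these elements, and capitals mark the AP-1-like site, the CRE or the CArG box.
JUN, chr1:58784048-58784297 (- strand): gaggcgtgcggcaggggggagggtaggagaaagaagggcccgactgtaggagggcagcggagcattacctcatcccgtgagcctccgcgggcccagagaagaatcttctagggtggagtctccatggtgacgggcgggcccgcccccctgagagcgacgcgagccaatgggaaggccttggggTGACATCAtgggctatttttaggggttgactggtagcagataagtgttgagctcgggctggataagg
MAFF, chr22:38201744-38201993 (+ strand): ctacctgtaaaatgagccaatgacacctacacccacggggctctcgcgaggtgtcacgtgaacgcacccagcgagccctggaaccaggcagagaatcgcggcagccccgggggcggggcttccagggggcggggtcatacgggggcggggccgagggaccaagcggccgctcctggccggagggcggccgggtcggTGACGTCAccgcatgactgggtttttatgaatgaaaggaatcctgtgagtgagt
EGR1, chr5:138465229-138465478 (+ strand): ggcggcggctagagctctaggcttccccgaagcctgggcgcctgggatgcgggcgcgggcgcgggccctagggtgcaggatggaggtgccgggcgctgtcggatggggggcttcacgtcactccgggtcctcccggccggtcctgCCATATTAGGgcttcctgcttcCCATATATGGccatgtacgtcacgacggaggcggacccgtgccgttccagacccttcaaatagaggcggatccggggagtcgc
JUND, chr19:18281623-18281872 (- strand): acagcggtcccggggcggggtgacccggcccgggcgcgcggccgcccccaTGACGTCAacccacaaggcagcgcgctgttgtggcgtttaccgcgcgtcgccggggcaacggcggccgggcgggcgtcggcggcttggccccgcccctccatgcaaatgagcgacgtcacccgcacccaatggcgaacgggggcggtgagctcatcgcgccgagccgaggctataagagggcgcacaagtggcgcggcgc
The AP-1-like site of JUN lay from -67 to -60, counted from the start, and 2.61% of all 35116 windows held this element. The CRE of MAFF lay from -54 to -47 and that of JUND from -200 to -193, and 1.85% of windows held one. EGR1 had CArG boxes from -105 to -96 and from -83 to -74, an element found in 1.29% of windows, and an EGR1 site from -198 to -190, found in 9.43%. FOSL2 had an AP-1 site from 5 to 11 bases past its start, and 7.71% of windows held one. FOS, FOSB and JUNB held none of these elements in their windows. The shorter TGACG, which lies within the CRE, occurred in each of the 8 genes and in 24.6% of windows. The elements occurred upstream of genes with different responses, which are given below, and the matches are descriptions of these letters only.

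Levels are given as CPM, counts relative to library size after TMM scaling. Fold changes, with their standard errors (SE), come from the quasi-likelihood test of edgeR, and p-values were adjusted by the Benjamini-Hochberg method over all genes tested. A DE gene is one with an adjusted p-value under 0.05. Between 2642377 and 5605072 reads per library were counted on genes, so that 3 counts correspond to between 0.535 and 1.14 CPM. FOS, FOSB and EGR1 lay near this level in many libraries. The libraries correlated with those of their own group at a mean r of 0.933 to 0.980 over 10782 genes, except for the hyperoxia libraries without vehicle, at 0.779. Library 1 of that pair stood apart, with counts on 12657 genes against 16465 to 20108 in the others. FOS, FOSB and EGR1 each had 0 counts in it, which allows a level of up to 0.611 CPM (3 counts).

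In hyperoxia with vehicle, 7 of the 10 factors rose against normoxia with vehicle and none fell. The 7 were FOSL1, FOSL2, FOSB, JUN, MAFF, EGR1 and ETS1. Over the 14957 genes tested, 8.68% rose and 8.81% fell. The median log2 fold change was 2.45 over the 10 factors and 0.01 over all genes. Because the factors were chosen with earlier results known, their shares and medians beside those of all genes are descriptions only. With ATRA in both arms, FOSL1, FOSL2, JUN, EGR1 and ETS1 rose, 5 of 10, while 11.4% of genes rose and 11.3% fell. Without vehicle, FOSL1, FOSL2, JUN and ETS1 rose, 4 of 10, and of 15339 genes tested 7.57% rose and 7.58% fell. Without the library that stood apart, the log2 fold changes of these 4 were 3.13, 1.62, 2.35 and 1.73 (adjusted p = 4.97e-09, 5.68e-06, 1.74e-07 and 0.000287). FOSL1, FOSL2, JUN and ETS1 were higher in all 7 hyperoxia libraries than in any of the 7 normoxia libraries, a pattern seen upward in 6.34% of genes and downward in 7.31%. In a bulk sample, more RNA per cell and more cells that express a gene cannot be told apart. Of 6 epithelial markers, 4 fell and 0 rose in hyperoxia with vehicle, 4 fell and 1 rose with ATRA in both arms, and 3 fell and 0 rose without vehicle. The levels of all 10 factors are shown by library, followed by the fold changes.

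**Figure D1:**
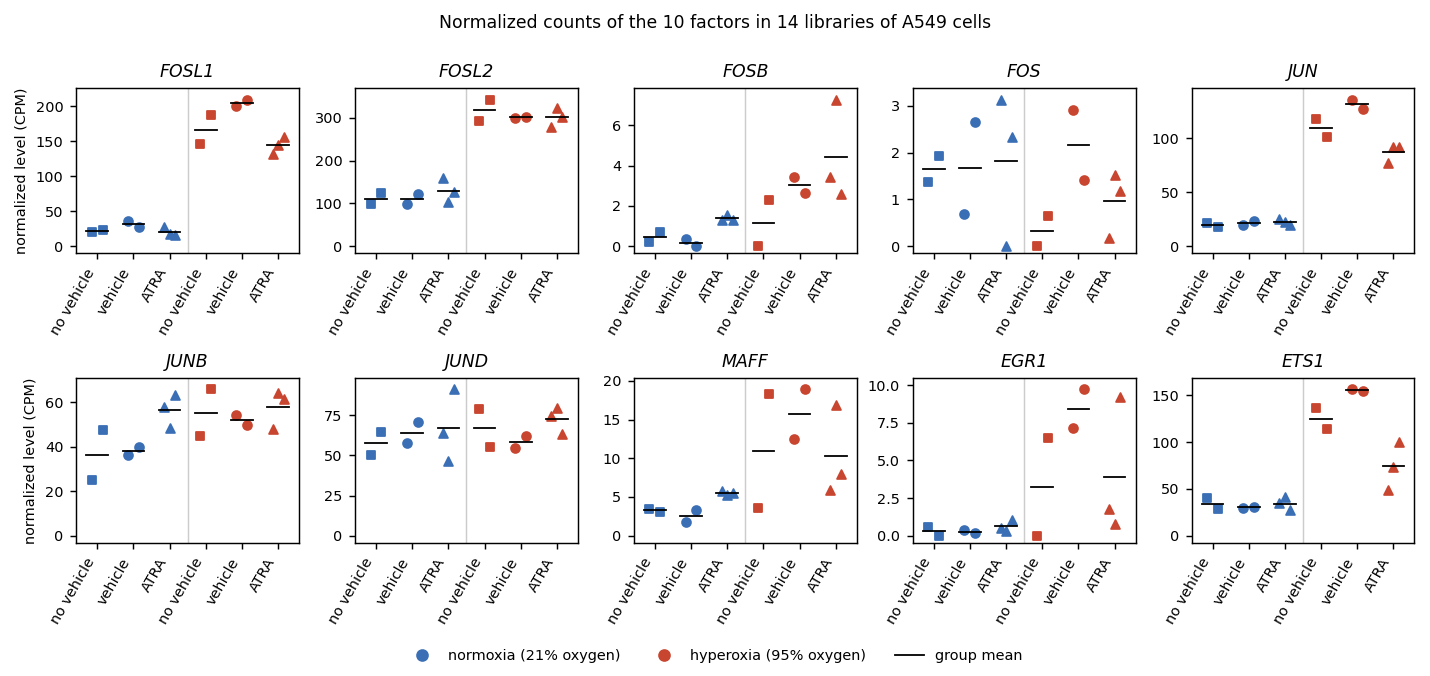
Normalized level in CPM (vertical axes, each from 0) of each factor in 14 libraries, grouped by oxygen and treatment on the horizontal axis. Points are libraries, black lines are group means, and only FOSL1, FOSL2, JUN and ETS1 have every hyperoxia library above every normoxia library.

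**Figure D2:**
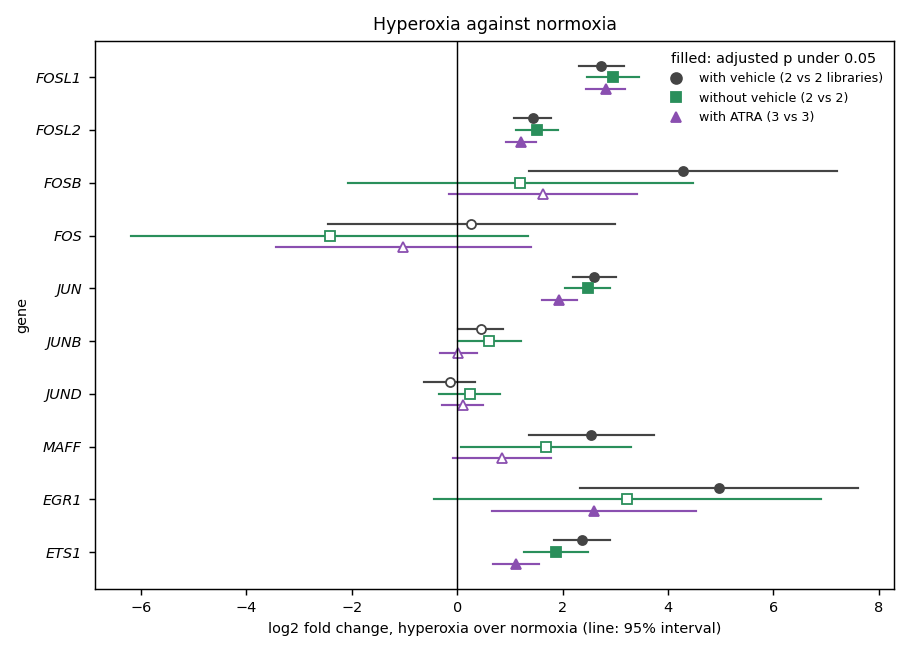
Log2 fold change of each factor in hyperoxia over normoxia (horizontal axis) in the comparisons with vehicle, without vehicle and with ATRA, with 95% intervals as lines and filled points for an adjusted p under 0.05. The narrow intervals of FOSL1, FOSL2, JUN and ETS1 lie above 0 in all 3 comparisons, and those of FOS, FOSB and EGR1 are wide.

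Among the FOS family, FOSL1 (chromosome 11, 65892049 to 65900545, minus strand) rose at each treatment. Its level with vehicle was 201 and 210 CPM in hyperoxia and 35.5 and 27.3 CPM in normoxia, or 205 ± 5.92 against 31.4 ± 5.75 CPM (SD, n = 2 each). The log2 fold change was 2.73 (SE 0.21, adjusted p = 7.72e-09), or 6.64-fold. With ATRA it measured 132, 144 and 156 CPM in hyperoxia and 27.4, 17.8 and 15.9 CPM in normoxia. This gave a log2 fold change of 2.82 (SE 0.18, adjusted p = 3.11e-10). Without vehicle the levels were 146 and 188 CPM against 20.1 and 22.8 CPM, a log2 fold change of 2.96 (SE 0.23, adjusted p = 9.77e-07). The groups were far apart at each treatment, and the lowest hyperoxia library was still 132 CPM where the highest normoxia library was 35.5 CPM.

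FOSL2 (chromosome 2, 28392858 to 28417317, plus strand) rose less than FOSL1 in fold but from a higher CPM. It measured 299 and 302 CPM in hyperoxia with vehicle, against 99.4 and 122 CPM in normoxia. The log2 fold change was 1.43 (SE 0.17, adjusted p = 2.99e-06). With ATRA the hyperoxia libraries held 279, 324 and 302 CPM and the normoxia libraries 160, 103 and 126 CPM, a log2 fold change of 1.21 (SE 0.14, adjusted p = 1.38e-06). Hyperoxia libraries were higher by more than the spread within any group. Without vehicle FOSL2 held 292 and 342 CPM against 99.3 and 123 CPM, a log2 fold change of 1.51 (SE 0.19, adjusted p = 6.04e-05). In a fit of these 4 libraries alone the adjusted p was 0.0636. An antisense gene, FOSL2-AS1, overlaps the 5' end of FOSL2 and was not analysed here.

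FOS and FOSB, the immediate early members, were at low levels at 72 hours. FOS (chromosome 14, 75278828 to 75282230, plus strand) had 11 and 8 counts in hyperoxia with vehicle, against 2 and 15 in normoxia, so the groups overlapped. Its log2 fold change was 0.27 with a 95% interval from -2.46 to 2.998, and no difference was detectable at this depth. With ATRA the libraries held 1, 4 and 5 counts in hyperoxia, against 12, 0 and 9 in normoxia (log2 fold change -1.02, adjusted p = 0.579). Without vehicle they held 0 and 2 counts in hyperoxia, against 7 and 8 in normoxia (log2 fold change -2.42, adjusted p = 0.379). FOSB (chromosome 19, 45467996 to 45475179, plus strand) had 13 and 15 counts in hyperoxia with vehicle, against 1 and 0 in normoxia. The ratio of normalized levels was 25.3, with an interval for counting error from 4.18 to 1033, and the adjusted p from edgeR was 0.0379. This call was lost without any 1 of the 4 vehicle libraries, at adjusted p-values of 0.183 and 0.130 without hyperoxia library 1 or 2 and 0.0775 and 0.348 without normoxia library 1 or 2, was 0.0523 without normoxia ATRA library 1, and was 0.165 in a fit of all 14 libraries. With ATRA, FOSB had 19, 19 and 11 counts in hyperoxia, against 5, 5 and 5 in normoxia, a log2 fold change of 1.63 (95% interval -0.16 to 3.41, adjusted p = 0.188).

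The makeup of the FOS family moved with oxygen. Levels of different genes were compared per length, as CPM per kilobase of all annotated exons of a gene. The annotation used for counting is not given and may differ in length. Ranks and shares between genes are therefore approximate. In hyperoxia with vehicle FOSL1 was the highest of the 10 factors at 109 CPM per kilobase, with FOSL2 at 42.0, JUN at 36.4, JUND at 30.3, JUNB at 28.4 and ETS1 at 21.8. MAFF at 2.79, EGR1 at 2.69, FOS at 0.68 and FOSB at 0.55 followed. The ranges of the 2 libraries overlapped for the neighbours JUND and JUNB, for MAFF and EGR1 and for FOS and FOSB. In normoxia with vehicle JUND led at 33.3 CPM per kilobase, with JUNB at 20.7, FOSL1 at 16.6, FOSL2 at 15.5, JUN at 5.94 and ETS1 at 4.24, and the ranges of FOSL1 and FOSL2 overlapped. FOSL1 made up 61.9% to 72.0% of the summed per-length level of the FOS family in the 7 hyperoxia libraries and 31.2% to 57.0% in the 7 normoxia libraries. FOSL2 made up 27.4% to 36.6% in hyperoxia and 42.1% to 65.2% in normoxia. The summed level of the FOS family was 110 to 154 CPM per kilobase in hyperoxia and 24.1 to 38.0 in normoxia, with no overlap.

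**Figure D3:**
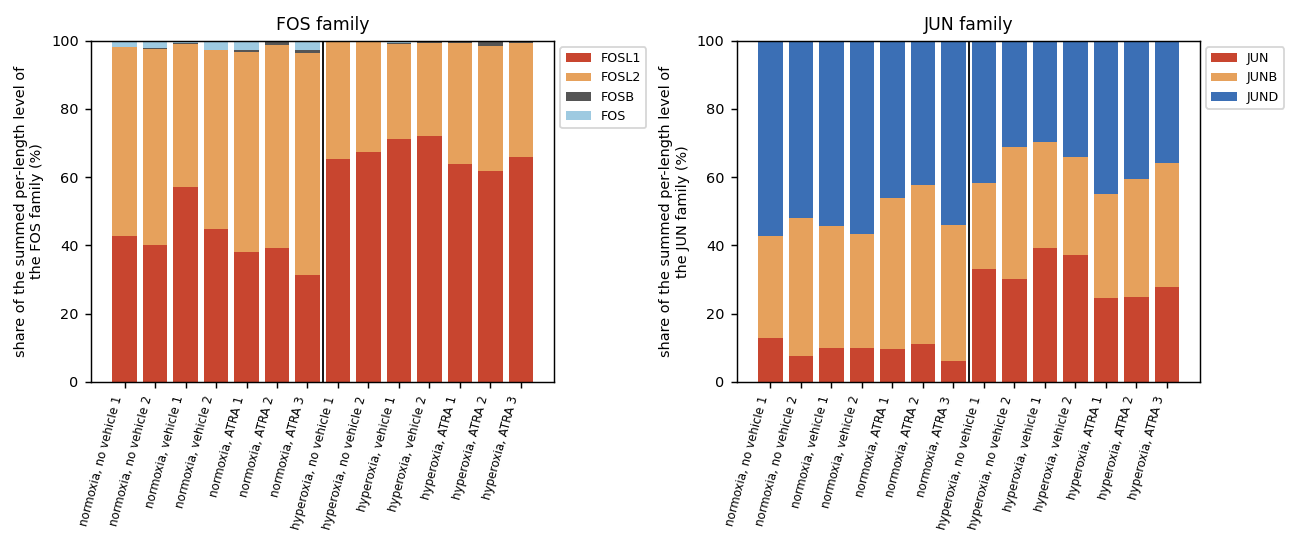
Share (%, vertical axes) of each gene in the summed per-length level of the FOS family (left) and the JUN family (right), with 1 bar per library and normoxia to the left of the line. FOSL1 takes 61.9% to 72.0% of the FOS family in hyperoxia, and JUN takes 24.6% to 39.3% of the JUN family there against 6.25% to 12.9% in normoxia.

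Of the JUN family, JUN rose in the oxygen comparisons. JUNB passed the test only in the alternative fits named below, and JUND did not pass it in any fit of these comparisons. JUN (chromosome 1, 58780791 to 58784047, minus strand) measured 136 and 128 CPM in hyperoxia with vehicle, against 19.8 and 23.2 CPM in normoxia, or 132 ± 5.90 against 21.5 ± 2.42 CPM (SD, n = 2 each). The log2 fold change was 2.60 (SE 0.20, adjusted p = 7.94e-09), or 6.05-fold. With ATRA the levels were 76.8, 92.2 and 92.1 CPM against 25.3, 22.8 and 19.8 CPM, a log2 fold change of 1.94 (SE 0.16, adjusted p = 1.89e-08). JUN was thus several-fold higher in every hyperoxia library, and all 7 normoxia libraries lay between 17.99 and 25.3 CPM. Without vehicle it measured 118 and 101 CPM in hyperoxia and 21.3 and 17.99 CPM in normoxia, a log2 fold change of 2.47 (SE 0.20, adjusted p = 1.38e-06).

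JUNB and JUND, encoded by short genes on chromosome 19 (12791486 to 12793315, plus strand, and 18279694 to 18281622, minus strand), did not pass the test in any of the 3 oxygen comparisons. JUNB measured 54.1 and 49.8 CPM in hyperoxia with vehicle, against 36.1 and 39.7 CPM in normoxia, a log2 fold change of 0.44 (95% interval 0.01 to 0.88, adjusted p = 0.159). In a fit of these 4 libraries alone the adjusted p was 0.0498. With ATRA JUNB measured 48.1 to 64.3 CPM in hyperoxia and 48.4 to 63.5 CPM in normoxia, so the groups overlapped. Without vehicle the log2 fold change was 0.61 (95% interval 0.01 to 1.22, adjusted p = 0.162), and it was 1.10 (adjusted p = 0.0446) without normoxia library 2. JUND measured 54.6 and 62.1 CPM against 57.7 and 70.8 CPM with vehicle, a log2 fold change of -0.14 (95% interval -0.63 to 0.34, adjusted p = 0.753). HOOK2 overlaps JUNB on the opposite strand and held 16.8% as many counts. The sources used here do not state whether the counting used strand, and HOOK2 itself had a log2 fold change of -0.48 (adjusted p = 0.617). JUN made up 24.6% to 39.3% of the per-length level of the JUN family in hyperoxia and 6.25% to 12.9% in normoxia. The share of JUND was 29.7% to 44.8% in hyperoxia and 42.4% to 57.1% in normoxia, and these ranges overlapped.

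MAFF is a small MAF protein that pairs with NRF2, BACH1 and other zipper proteins at antioxidant response elements. It lies on chromosome 22 from 38201994 to 38216511, plus strand. Its level was 12.5 and 18.9 CPM in hyperoxia with vehicle, against 1.74 and 3.37 CPM in normoxia, a log2 fold change of 2.54 (SE 0.57, adjusted p = 0.00310). The adjusted p was 0.0542 without normoxia vehicle library 1 and 0.0648 without hyperoxia vehicle library 2. With ATRA MAFF measured 5.95, 16.8 and 8.03 CPM in hyperoxia and 5.74, 5.31 and 5.47 CPM in normoxia. The 3 hyperoxia libraries were higher but widely spread, and the log2 fold change of 0.85 (95% interval -0.08 to 1.79) had an adjusted p of 0.185. Without vehicle it measured 3.60 and 18.2 CPM in hyperoxia against 3.51 and 3.12 CPM in normoxia (log2 fold change 1.69, adjusted p = 0.146). Without hyperoxia library 1, which stood apart, this became 2.44 (adjusted p = 0.00873), and without library 2 it became 0.06 (adjusted p = 0.958). TMEM184B overlaps the end of MAFF on the opposite strand, and its counts were 1170% of those of MAFF. Its log2 fold change with vehicle was 0.04 (adjusted p = 0.934), but reads of the overlap could not be assigned to a strand here.

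EGR1 (chromosome 5, 138465479 to 138469303, plus strand) encodes an immediate early factor induced through serum response factor. It had 27 and 55 counts in hyperoxia with vehicle, against 1 and 1 in normoxia. The ratio of normalized levels was 37, with an interval for counting error from 9.92 to 311, and the adjusted p from edgeR was 0.00819. The adjusted p was 0.0787 without hyperoxia vehicle library 2, 0.0586 without normoxia vehicle library 1 and 0.119 without normoxia vehicle library 2, and it was 0.117 in a fit of all 14 libraries. With ATRA EGR1 had 10, 2 and 39 counts in hyperoxia, against 2, 1 and 4 in normoxia. Hyperoxia library 3 held most of these counts. The ratio was 6.40, with a counting interval from 2.89 to 16.7, and the adjusted p was 0.0487. The call was lost in 8 of the 10 fits that left out 1 library, with adjusted p-values from 0.0171 to 0.486, and without hyperoxia library 3 the log2 fold change fell from 2.60 to 1.05. Without vehicle EGR1 counts were 0 and 20 in hyperoxia against 3 and 0 in normoxia (adjusted p = 0.226). Leaving out hyperoxia library 1 gave a log2 fold change of 4.25 (adjusted p = 0.0434) and leaving out library 2 gave -3.56 (adjusted p = 0.294).

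ETS1 (chromosome 11, 128458765 to 128587558, minus strand) is the founding member of the ETS family. Its level was 156 and 155 CPM in hyperoxia with vehicle, against 29.9 and 30.7 CPM in normoxia, or 156 ± 0.856 against 30.3 ± 0.560 CPM (SD, n = 2 each). The log2 fold change was 2.36 (SE 0.26, adjusted p = 8.63e-07), or 5.13-fold. With ATRA the hyperoxia libraries were more spread, at 48.3, 73.8 and 99.9 CPM, against 34.4, 40.9 and 27.1 CPM in normoxia. The log2 fold change there was 1.12 (SE 0.21, adjusted p = 0.000493). Without vehicle ETS1 measured 136 and 114 CPM in hyperoxia and 39.8 and 28.3 CPM in normoxia, a log2 fold change of 1.87 (SE 0.28, adjusted p = 0.00037). In a fit of these 4 libraries alone the adjusted p was 0.0667. MIR6090 lies within ETS1 and had 3 counts over all libraries.

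Leaving out any 1 library kept FOSL1, FOSL2, JUN and ETS1 among the DE genes in each of the 3 oxygen comparisons. The count of factors that rose with vehicle was 7 in the full fit and 4 without normoxia vehicle library 1 or without hyperoxia vehicle library 2. The number of DE genes with vehicle was 2616, and it was 1433 and 1386 without hyperoxia vehicle library 1 or 2 and 1447 and 1523 without normoxia vehicle library 1 or 2. Without vehicle the number was 2324, and it was 7364 without hyperoxia library 2 and 969 and 1393 without normoxia library 1 or 2. The library left in the hyperoxia group in the first of these fits is the one that stood apart.

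ATRA against vehicle in hyperoxia lowered ETS1 and JUN and raised none of the 10 factors. Of the 14957 genes tested, 0.695% fell and 1.52% rose. This comparison and that of oxygen with vehicle share the 2 hyperoxia vehicle libraries. In it 5 of the 6 epithelial markers rose over vehicle, and their values between vehicle and no vehicle are given with the markers below. ETS1 measured 48.3, 73.8 and 99.9 CPM with ATRA and 156 and 155 CPM with vehicle. Every ATRA library was below both vehicle libraries, and the log2 fold change was -1.08 (SE 0.21, adjusted p = 0.00613). JUN measured 76.8, 92.2 and 92.1 CPM with ATRA and 136 and 128 CPM with vehicle, a log2 fold change of -0.60 (SE 0.16, adjusted p = 0.0498). FOSL1 lay at 132, 144 and 156 CPM with ATRA and 201 and 210 CPM with vehicle. Its log2 fold change of -0.51 (95% interval -0.86 to -0.17) did not pass the test (adjusted p = 0.129). It was -0.53 (adjusted p = 0.0386) with no filter on low counts. Over the 9 alternatives it ran from -0.56 to -0.21, with adjusted p-values from 0.0386 to 0.561. FOSL2 measured 279 to 324 CPM with ATRA and 299 and 302 CPM with vehicle, with a log2 fold change of 0.00, whose sign changed with the processing, and a 95% interval from -0.31 to 0.31.

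These calls depended on the libraries used as controls. With the hyperoxia libraries without vehicle in place of those with vehicle, the log2 fold change of ETS1 was -0.76 (adjusted p = 0.178) and that of JUN -0.33 (adjusted p = 0.320), so neither was called. Over the 9 alternatives the adjusted p ranged from 9.20e-08 to 0.178 for ETS1 and from 0.0311 to 0.320 for JUN, whose call was lost in 6 of them. Without hyperoxia vehicle library 1 the adjusted p of ETS1 was 0.0873 and without library 2 it was 0.0835, with log2 fold changes of -1.08 and -1.09. For JUN it was 0.544 and 0.313 without these 2 libraries, and it was above 0.05 in 8 of the 10 fits that left out 1 library. The number of DE genes was 331, and it was 83 and 102 without vehicle library 1 or 2 and 218 without hyperoxia ATRA library 1.

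In hyperoxia EGR1 held 10, 2 and 39 counts with ATRA and 27 and 55 with vehicle, and MAFF 5.95, 16.8 and 8.03 CPM against 12.5 and 18.9 CPM. Both groups overlapped, with adjusted p-values of 0.636 and 0.586. FOSB, FOS, JUNB and JUND had adjusted p-values above 0.05 as well, with 95% intervals from -1.36 to 2.39, from -3.82 to 1.38, from -0.24 to 0.54 and from -0.14 to 0.75 on the log2 scale.

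In normoxia no factor was a DE gene with ATRA by edgeR, while 0.816% of genes rose and 0.435% fell. At an unadjusted p under 0.05 there were 3 of 10, namely JUNB, FOSL1 and FOSB, against 8.79% of all genes tested. JUNB measured 57.9, 48.4 and 63.5 CPM with ATRA and 36.1 and 39.7 CPM with vehicle, with every ATRA library higher (log2 fold change 0.57, 95% interval 0.17 to 0.97, adjusted p = 0.236). FOSL1 measured 27.4, 17.8 and 15.9 CPM with ATRA and 35.5 and 27.3 CPM with vehicle, a log2 fold change of -0.60 (95% interval -1.03 to -0.16, adjusted p = 0.274). Without normoxia ATRA library 1 this was -0.88 (adjusted p = 0.0481), the only fit of those that left out 1 library in which a factor was called. FOSB had 5 counts in each ATRA library and 1 and 0 with vehicle. DESeq2 also called 0 factors. ETS1 and JUN had log2 fold changes of 0.16 (95% interval -0.35 to 0.68) and 0.06 (95% interval -0.35 to 0.46).

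**Figure D4:**
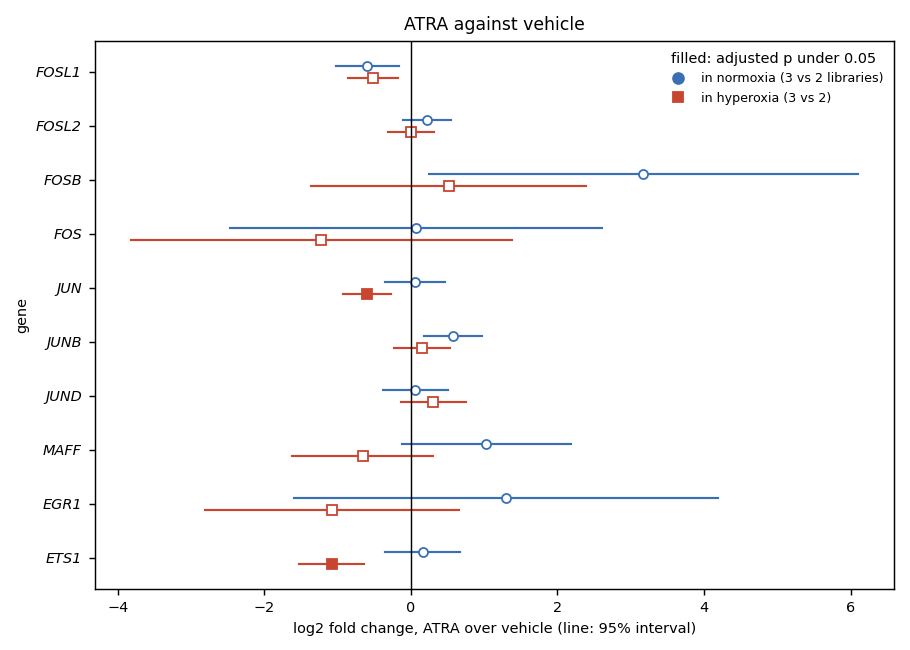
Log2 fold change of each factor with ATRA over vehicle (horizontal axis) in normoxia and in hyperoxia, with 95% intervals as lines and filled points for an adjusted p under 0.05. In hyperoxia ETS1 (-1.08) and JUN (-0.60) passed the test, and in normoxia no factor did.

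The ATRA effects at the 2 oxygen exposures were compared by an interaction term, which called none of the 10 factors by edgeR, while 0.1% of genes had a positive and 0.0401% a negative difference, hyperoxia minus normoxia. Unadjusted, 3 of 10 had a p under 0.05, against 7.21% of all genes tested. The difference was -1.24 for ETS1 (SE 0.33, adjusted p = 0.223), -0.66 for JUN (SE 0.25, adjusted p = 0.547) and -1.69 for MAFF (SE 0.72, adjusted p = 0.622). DESeq2 called 1 factor, ETS1, at an adjusted p of 0.0253, and the adjusted p of ETS1 ranged from 0.00232 to 0.889 over 7 alternatives. Without hyperoxia ATRA library 3 ETS1 was called, with a difference of -1.54 (adjusted p = 0.0433). For FOSL1 the difference was 0.08 with a 95% interval from -0.47 to 0.64.

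Between vehicle and no vehicle, 0 of the 10 factors were called by edgeR in hyperoxia, where 0.00652% of genes rose and 0% fell, and 0 in normoxia, where 0% rose and 0% fell. With unadjusted p-values under 0.05 counted instead, the numbers were 0 in hyperoxia, against 8.91% of all genes tested, and 1, FOSL1, in normoxia, against 0.867%. DESeq2 also called 0 factors. Leaving out hyperoxia library 2 left library 1, which stood apart, alone in the hyperoxia group without vehicle. The calls changed widely in that fit.

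Genes that work with these factors were examined in lists of gene symbols, 7 of them for the pathway, also chosen with earlier results known. Their changes are given on the log2 scale. Among the other AP-1 partners, zipper proteins of the ATF, BATF, BACH, MAF and NFE2 groups, 13 of 18 passed the filter on low counts. In hyperoxia with vehicle 2 of the 13 rose and 1 fell, and the list median on the log2 scale was 0.15, where that of all genes was 0.01. ATF3, a stress-induced partner of JUN, rose from 2.78 and 3.19 CPM to between 34.6 and 35.3 CPM, a log2 fold change of 3.52 (adjusted p = 9.13e-06). BACH1, a repressor of heme oxygenase, rose by 1.34 (adjusted p = 0.00285), and JDP2, a repressor that pairs with JUN, fell by 1.18 (adjusted p = 0.00376). With ATRA in hyperoxia JDP2 rose by 1.30 over vehicle (adjusted p = 0.00566), to between 28.1 and 39.3 CPM from 11.4 and 15.2 CPM. Vehicle over no vehicle in hyperoxia was -1.14 for JDP2, which did not pass the test (adjusted p = 0.554). ATF3 and BACH1 also rose with ATRA in both arms and without vehicle, and JDP2 did not pass the test in either, with log2 fold changes of -0.05 and 0.20.

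Of 8 tested genes of the EGR and serum response factor axis, 2 rose with vehicle and 0 fell (median 0.21). These were the ternary complex factors ELK4 (1.03, adjusted p = 0.000156) and ELK3 (0.48, adjusted p = 0.0270). ELK3 also rose with ATRA in both arms and without vehicle (0.47 and 0.56, adjusted p = 0.00689 and 0.0153). ELK4 passed the test in neither (0.36 and 0.18, adjusted p = 0.0668 and 0.558). Of 14 other ETS family genes tested, 3 rose and 3 fell (median -0.37). The repressor ETV6 rose by 1.21 (adjusted p = 0.000228). The epithelial ETS factors ELF3, EHF and SPDEF fell, with log2 fold changes of -1.07 (adjusted p = 0.000224), -1.57 (adjusted p = 0.00987) and -3.84 (adjusted p = 0.00458). Without vehicle EHF did not pass the test (-0.94, adjusted p = 0.171), and ELF3 and SPDEF did. SPDEF measured 23.8 and 24.0 CPM in normoxia with vehicle and 0.80 and 2.29 CPM in hyperoxia with vehicle. With ATRA in hyperoxia ELF3 rose by 1.67 (adjusted p = 5.56e-06) and ETV6 by 0.70 (adjusted p = 0.0376), and both also rose with ATRA in normoxia, by 1.00 (adjusted p = 0.00166) and 1.04 (adjusted p = 0.00545). ETS1 thus moved opposite to ELF3 in both the oxygen comparison with vehicle and the ATRA comparison in hyperoxia, which share the hyperoxia vehicle libraries. With ATRA in normoxia, where ELF3 rose, ETS1 had a log2 fold change of 0.16 (adjusted p = 0.942).

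Among 18 other immediate early genes, all tested, 10 rose with vehicle and 2 fell (median 0.60). ATF3 is also in this list. BTG2, an antiproliferative gene, rose by 3.25 (adjusted p = 2.17e-08), and CCN1, a secreted matrix protein, rose by 2.05 (adjusted p = 2.73e-07). The orphan nuclear receptor NR4A1 fell by 3.07 (adjusted p = 2.06e-06), from 43.8 and 44.2 CPM to between 4.24 and 6.003 CPM. With ATRA in both arms again 10 rose and 2 fell, and without vehicle 5 rose and 1 fell. ATRA in hyperoxia lowered KLF6 by 1.03 (adjusted p = 0.0111) and IER3 by 0.71 (adjusted p = 0.0453) and raised none of the 18. IER3 also fell with ATRA in normoxia, by 0.85 (adjusted p = 0.0273). Vehicle over no vehicle in hyperoxia was 0.73 for KLF6 and 0.21 for IER3, neither passing the test (adjusted p = 0.554 and 0.714).

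Of 15 MAP kinases and MAP kinase kinases tested, 3 rose with vehicle and 1 fell (median -0.04). MAP2K1 and MAP2K2, which activate ERK, rose by 0.75 (adjusted p = 0.00781) and 0.77 (adjusted p = 0.000832), and MAP2K5 rose by 0.90 (adjusted p = 0.0238). MAP2K6, an activator of p38, fell by 2.07 (adjusted p = 0.000278) and rose by 1.52 with ATRA in hyperoxia (adjusted p = 0.0171). With ATRA in both arms and without vehicle, MAP2K2 and MAP2K5 also rose and MAP2K6 also fell. MAP2K1 passed the test in neither (0.43 and 0.54, adjusted p = 0.0536 and 0.0742). Of 14 feedback genes, phosphatases of the DUSP family and Sprouty or SPRED proteins, 4 rose and 1 fell with vehicle (median 0.66). The phosphatases DUSP1, DUSP14 and DUSP16 rose by 0.85 (adjusted p = 0.00103), 0.95 (adjusted p = 0.00474) and 0.61 (adjusted p = 0.0235), and DUSP4 fell by 0.57 (adjusted p = 0.0105). With ATRA in both arms 7 of these 14 rose and 0 fell, and without vehicle 2 rose and 1 fell. DUSP1 rose in both, by 0.68 and 1.00. DUSP14 rose only with ATRA (0.99, against -0.14 without vehicle) and DUSP16 in neither (-0.17 and 0.10). DUSP4 fell without vehicle (-0.47) and did not pass the test with ATRA (-0.10).

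Of 16 tested genes known as targets of AP-1, EGR1 or ETS1, 9 rose with vehicle and 1 fell (median 0.55). HMOX1, heme oxygenase 1, rose by 1.47 (adjusted p = 1.41e-07), PLAU, urokinase, by 0.92 (adjusted p = 0.000875) and VIM, vimentin, by 0.68 (adjusted p = 0.00337). With ATRA in both arms 7 of the 16 rose and 2 fell, and without vehicle 4 rose and 0 fell. HMOX1 and PLAU rose in both, and VIM passed the test in neither (0.11 and 0.43, adjusted p = 0.566 and 0.116). ATRA in hyperoxia raised VEGFA by 1.06 (adjusted p = 0.0309) and lowered VIM by 0.56 (adjusted p = 0.0321), 1 gene in each direction. HMOX1 had a log2 fold change of -0.26 in that comparison, which did not pass the test (adjusted p = 0.364).

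**Figure D5:**
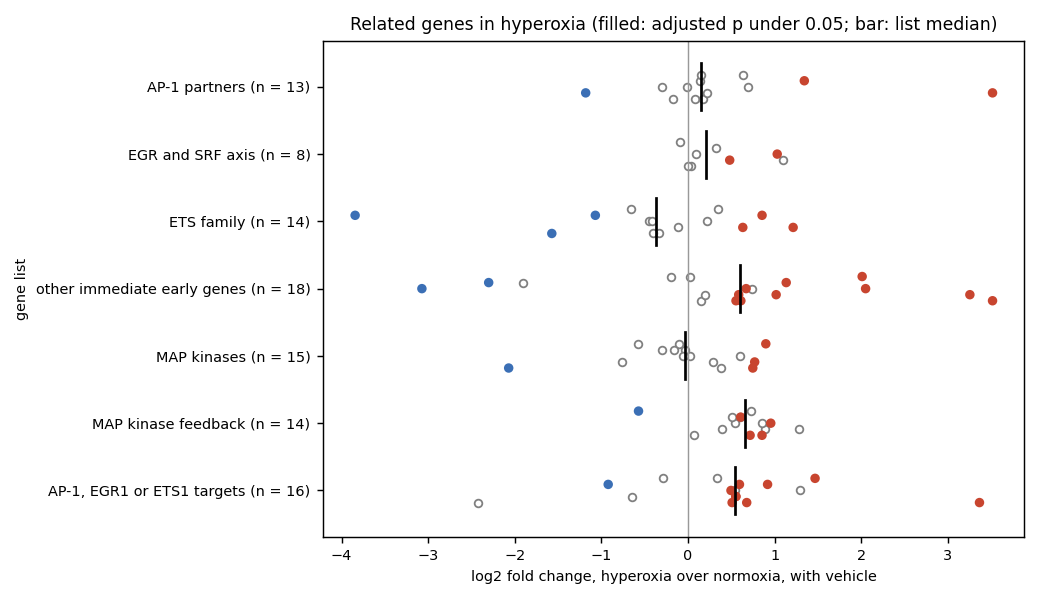
Log2 fold change in hyperoxia over normoxia with vehicle (horizontal axis) of each tested gene in 7 lists of related genes (rows), with filled points for an adjusted p under 0.05 and a black bar at the list median. Medians run from -0.37 for the ETS family to 0.66 for MAP kinase feedback, against 0.01 over all genes.

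The genes whose log2 CPM followed each factor most closely over the 14 libraries were listed as a description among 10782 genes with a mean log2 CPM of at least 3. All genes were measured in the same libraries and share their oxygen groups and depth. FOSL1 was followed by CCN1, AEN and HMOX1 at Pearson's r of 0.992, 0.988 and 0.987. JUN was followed by PLA2G4C at 0.993 and GADD45A at 0.988, among others. The values for ETS1 were 0.980 with TLE4, 0.979 with ASCC3 and 0.977 with PPP1R15A, and for FOSL2 they were 0.986 with GPX1, 0.986 with CYGB and 0.983 with ZNF319. HMOX1 is also in the list of targets, and CCN1 is among the other immediate early genes. EGR1 was closest to TTC27 at 0.974 and MAFF to PARVA at 0.914. For FOS, FOSB, JUNB and JUND the closest genes reached 0.854, 0.920, 0.903 and 0.883.

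The 6 epithelial markers were KRT7, KRT8, KRT18, KRT19, CDH1 and EPCAM, and they summed to 3317 to 7001 CPM in hyperoxia and 7221 to 11880 CPM in normoxia. KRT18, KRT8, CDH1 and KRT19 fell in hyperoxia with vehicle, by 2.13, 1.73, 2.17 and 1.58 (adjusted p = 2.17e-08, 2.73e-07, 1.64e-05 and 1.84e-05). Without vehicle CDH1 did not pass the test (-1.02, adjusted p = 0.0556). With ATRA in hyperoxia 5 of the 6 rose over vehicle. Vehicle over no vehicle in hyperoxia was -1.69 for CDH1. It was -0.23, -0.17, -0.20 and 0.60 for KRT7, KRT8, KRT18 and KRT19, and none passed the test. The rise of CDH1 against the libraries without vehicle was not tested. KRT7, KRT8 and KRT18 stayed between 508 and 5913 CPM in every library, and EPCAM held 0 to 4.80 CPM. Markers of other cell types, 10 genes for blood, endothelial and stromal cells, summed to 0 to 9.92 CPM in hyperoxia and 9.75 to 18.7 CPM in normoxia. The endothelial gene VWF, the stromal gene DCN and the T cell gene CD3E had 0 counts in all 14 libraries, and COL1A1 fell by 3.30 in hyperoxia with vehicle (adjusted p = 0.0202). The part of these marker changes in the changes of the 10 factors was not tested.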

How the data were processed

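RNA-seq of A549 cells was analysed in 14 of 15 libraries. The remaining library, whose title says hyperoxia but whose treatment label reads adipogenic differentiation, was not assigned to a group. Per the submitters' processing notes, the authors used Trimmomatic 0.38, HISAT2, HTSeq and DESeq2 with the hg38 build. The deposited values are raw counts, without normalization, and the annotation release and strand setting are not given in the sources used here. The library kit was stranded. The 5 summary lines of the counter were left out. Reads that the counter assigned to no feature made up 48.6% to 55.3%, and these need not lie outside genes. Whether libraries came from separate cultures is not stated, so p-values measure only the spread between these libraries.

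Counts were tested with edgeR 4.0.16 in R 4.3.3 (filterByExpr with a minimum count of 10 and a minimum total of 15, TMM, quasi-likelihood test, adjusted p under 0.05). The comparisons of vehicle and ATRA used 10 libraries in 4 groups (14957 genes), and those without vehicle used 14 libraries in 6 groups (15339 genes). All 10 factors passed both filters. CPM in the text use the scaling of all 14 libraries. Log2 CPM for correlations used a prior count of 2. Intervals are 95% intervals of the fit, and count ratios have exact intervals for counting error only. No 2 libraries agreed within sampling noise.

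The alternatives were DESeq2 1.42.0, RLE size factors, library totals, no filter, only the groups compared, all 14 libraries, an average over treatments, libraries without vehicle as controls, sets of library numbers as a term, only the libraries numbered IA04 to IA15 in the labels (chosen after seeing the data) and leaving out each library. Gene positions and upstream sequences are from RefSeq (GRCh38.p14), and exon lengths are from GENCODE 44. Named genes are the 10 factors in each comparison, and in each list up to 4 called genes with the smallest p in hyperoxia with vehicle and up to 2 with ATRA in hyperoxia. For each factor, genes with the closest pattern were also named. 1 gene that this rule names is not reported here. The factors and lists were chosen with earlier results of these data known. The edgeR and DESeq2 code was tested on counts simulated for the comparison of oxygen with vehicle. Plots were drawn with matplotlib 3.10.9.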

Additional observations from a re-analysis of the deposited data

Results flagged for a closer look

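The library that was assigned to no group, titled hyperoxia but labelled as adipogenic differentiation, held a signal above every normoxia library in 8 of the 10 factors, scaled by library totals, as did 27.7% of the 15339 genes tested over 14 libraries. FOSL1 measured 185 CPM, FOSL2 303 CPM, JUN 129 CPM, ETS1 131 CPM and MAFF 20.2 CPM, where the highest normoxia libraries reached 35.9, 155, 24.6, 41.4 and 5.57 CPM. FOS and EGR1 measured 4.53 CPM each, from 20 counts each, and FOSB measured 1.59 CPM from 7 counts, next to 1.58 CPM in the highest normoxia library. JUNB at 62.3 CPM and JUND at 74.5 CPM lay within the range of the normoxia libraries. FOS and MAFF were also above all 7 hyperoxia libraries, which reached 2.88 and 19.4 CPM. These values entered no comparison.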

How the results depend on the processing

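FOSL1, FOSL2, JUN and ETS1 kept their calls in the oxygen comparisons with vehicle and with ATRA under every alternative run, and the calls of FOSB, EGR1 and MAFF, and those of ATRA, did not. Over single factors, 1022 alternative values kept direction and side of the threshold, 44 lost a call, 12 gained one and 44 changed sign. At this depth the factors with few counts, FOS, FOSB and EGR1, limit what could be seen. No paired analysis was possible because the labels give the libraries no replicate numbers, and the numbers used here follow accession order and pair nothing. The sets of library numbers used as a term were read from the titles, which do not say what a set shares. They were unequal in makeup. The set IA01 to IA03 held ATRA libraries but no vehicle library, so set and treatment partly coincided. Alternatives for single factors between vehicle and no vehicle were not run, since no single value is given there. The analysis of libraries IA04 to IA15 only was chosen after seeing the data. Where a cause is not shown by the setting itself, the cause was not tested.

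In hyperoxia against normoxia with vehicle, DE genes numbered 4665 with only the groups compared, 1420 with 14 libraries and 4764 as an average over treatments, where FOS was -1.04 and JUND 0.065 on the log2 scale. With ATRA, DE genes numbered 1975 with 14 libraries, and FOS was 0.13 with libraries IA04 to IA15. Without vehicle, only the groups compared gave 2 factors higher and 58 DE genes, and JUND was -0.052 with libraries IA04 to IA15.

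For ATRA in hyperoxia, 1 factor was lower with RLE size factors, library totals, library sets or libraries IA04 to IA15, and 0 with 14 libraries or the libraries without vehicle as controls. DE genes there numbered 522 with no filter, 191 with IA04 to IA15, 116 with 14 libraries and 66 with the other controls. FOSL2 was -0.0066 with library totals, -0.013 with no filter, -0.044 with library sets and -0.073 with the other controls, where FOS was 1.60 and EGR1 0.33. For ATRA in normoxia, DE genes numbered 300 with no filter, 70 with 14 libraries and 67 with the other controls, where ETS1 was -0.0052. With IA04 to IA15, 1 factor was lower, FOS was -0.54 and JUN -0.036. For the interaction, DESeq2 gave 1 factor lower and 94 DE genes, no filter 1 and 91, and 14 libraries 4 DE genes, and FOSL2 was 0.014 with IA04 to IA15. Between vehicle and no vehicle in hyperoxia, DE genes numbered 4 with DESeq2, 89 with no filter and 0 with only the groups compared, and in normoxia 3 with no filter.

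Leaving out each library gave, with vehicle, 4 to 7 factors higher, 1386 to 3175 DE genes and FOS from -0.34 to 1.56. With ATRA in both arms JUNB ran from -0.082 to 0.15 and JUND from -0.10 to 0.36. For ATRA in normoxia there were 0 to 1 factors lower and 56 to 267 DE genes, with FOS from -0.53 to 1.37, JUN from -0.047 to 0.19 and JUND from -0.22 to 0.26. For ATRA in hyperoxia there were 0 to 2 factors lower and 83 to 449 DE genes, with FOSB from -0.021 to 0.78 and FOSL2 from -0.067 to 0.055. For the interaction there were 0 to 1 factors lower and 4 to 28 DE genes, with FOSL1 from -0.093 to 0.37. Without vehicle there were 969 to 7364 DE genes, with FOSB from -4.03 to 2.28, JUND from -0.053 to 0.41 and EGR1 from -3.56 to 6.71. Between vehicle and no vehicle in hyperoxia there were 0 to 3 factors higher and 1 to 5630 DE genes.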
